A study of Mus musculus with 7 samples.

Results

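GATA2 acts on blood genes together with a small set of other nuclear proteins, and the genes for 7 of them were examined for occupancy by GATA2 itself. These genes were Lyl1, Tal1, Lmo2, Ldb1, Runx1, Cbfa2t3 and Zfpm1, 7 of the 21951 protein-coding genes in the annotation. A CUT&Tag peak was linked to a gene when its summit, the base with most reads, lay inside the gene or within 100 kb of the gene start. By this rule 49 of 6254 peaks with GATA2 and 8 of 1079 peaks with 9aa-Ins were linked to the 7 genes, and no peak was linked to more than 1 of them.

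Both constructs were studied in hi-77-/- cells, progenitors of blood cells from mouse fetal liver that Hoxb8 keeps dividing, grown with β-estradiol and homozygous for deletion of a Gata2 enhancer. Cells of 1 group received a retrovirus for HA-tagged GATA2, and cells of the other a retrovirus for HA-tagged 9aa-Ins, in which an insertion lengthens the spacer between the zinc fingers. After 3 days GFP+ cells were sorted, and the CUT&Tag used an anti-HA antibody, which sees the viral protein and not the GATA2 the cells still make. Sorted cells of each construct were pooled and then divided into 2 replicates, and each peak list holds its 2 replicates merged. There is thus no spread between replicates, no test was possible, and every interval below covers counting error only and treats peaks as independent, although several can lie in 1 locus. CUT&Tag peaks give occupancy and no expression, so that the labelled cell type could not be checked against marker genes. The anti-GATA2 antibody was used for another 3 libraries, which were left out here.

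TAL1 and its close relative LYL1 are basic helix-loop-helix factors that bind the E-box, CANNTG, as dimers with E proteins. LMO2 does not touch DNA and bridges these dimers to GATA factors, and LDB1 binds LMO2 and self-associates, which can bring distant elements together. RUNX1 is a DNA-binding factor required for blood stem cells to form. CBFA2T3, also called ETO2, is a corepressor that joins the TAL1 complex, and ZFPM1, also called FOG1, binds the N-terminal zinc finger of GATA1 and GATA2. GATA2 binds WGATAR, that is, TGATAA or TGATAG, and likewise AGATAA or AGATAG, on either strand. In GATA-TAL1 complexes the E-box and WGATAR often stand a short, fixed distance apart.

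All 7 genes had a linked GATA2 peak, whereas 52.5% of all protein-coding genes did. Linked 9aa-Ins peaks were found at 3 of the 7 genes, Lyl1, Cbfa2t3 and Zfpm1, beside 18.6% of all protein-coding genes. The other 4 genes, Tal1, Lmo2, Ldb1 and Runx1, had no 9aa-Ins peak within the limit. The number of GATA2 peaks was 14 for Lyl1, 11 for Zfpm1, 9 for Cbfa2t3, 7 for Runx1, 4 for Tal1, 2 for Lmo2 and 2 for Ldb1. Of the protein-coding genes, 0.323% had at least as many linked GATA2 peaks as Lyl1, 0.642% as many as Zfpm1, 1.2% as many as Cbfa2t3, 2.96% as many as Runx1, 11.6% as many as Tal1 and 32.2% as many as Lmo2 or Ldb1. A high count does not by itself belong to the gene named, since 32 of the 49 peaks were nearer to the member's own start than to that of any other coding gene, and for Lyl1 only 5 of 14 were. The rule also takes every summit inside a gene, so a gene longer than 100 kb is searched over more bases. Runx1, of 225 kb, has peaks at 110, 129 and 205 kb from its start, beyond that distance.

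**Figure D1:**
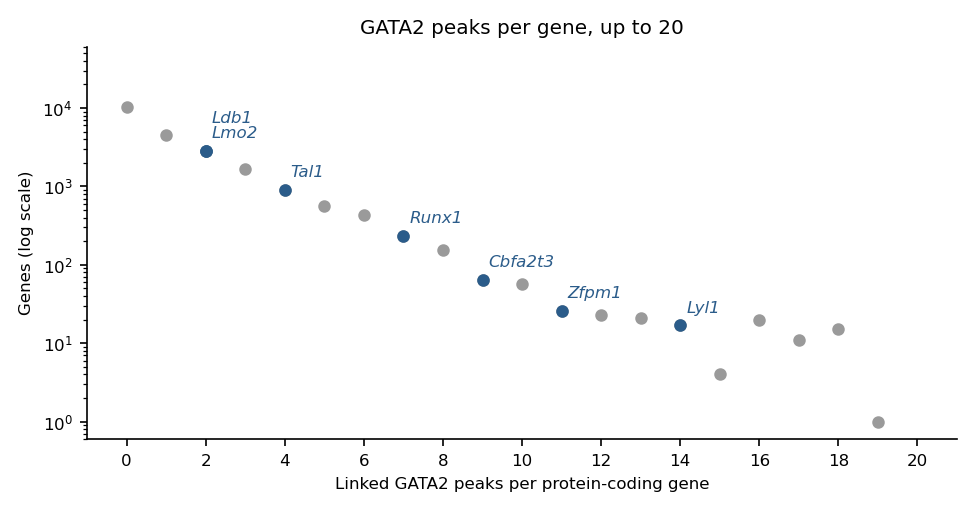
The number of linked GATA2 peaks per protein-coding gene (horizontal axis, up to 20) against the number of genes with that many (vertical axis, log scale). Each point is a count of genes, and the blue points carry the names of the 7 partner genes, from 2 peaks at Lmo2 and Ldb1 to 14 at Lyl1.

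The height of a peak is given as its pileup, the reads that cover its summit, or as its fold enrichment, the pileup plus 1 over the background plus 1. The background was 0.464 reads with GATA2 and 0.455 reads with 9aa-Ins, and the lowest pileup in either list was 9 reads. Linked GATA2 peaks had a median pileup of 18 reads and a median fold enrichment of 13.0, and all GATA2 peaks 15 reads and 10.9. A pileup of 30 or more was reached by 13 of the 49 linked peaks (26.5%, 95% Wilson interval 16.2 to 40.3) and by 7.12% of all GATA2 peaks. Of the 20 highest GATA2 peaks, 4 were linked to the partner genes. They lay in the first exon of Lyl1, upstream of Cbfa2t3, in the first intron of Zfpm1 and downstream of Tal1. The counts given for each gene below can be read beside the whole GATA2 list, in which 30.3% of peaks held WGATAR within 100 bp of the summit and 15.3% overlapped a 9aa-Ins peak.

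Tal1 and Lyl1 encode the basic helix-loop-helix factors. At Tal1 (ENSMUSG00000028717.12, chr4:115056426-115071755, plus strand) the highest of the 4 GATA2 peaks lay beyond the end of the gene, 39.5 kb from its start and between genes. It had a pileup of 69 reads and a fold enrichment of 47.8, ranked 20 of 6254, and held 1 WGATAR. An enhancer active in erythroid cells is known at about this distance from Tal1. A lower peak of 15 reads lay 19.3 kb from the start, close to where an enhancer of blood stem cells is known, and held no WGATAR within 100 bp of its summit. Inside the gene, a peak of 29 reads in the first intron lay 0.346 kb from the start with 1 WGATAR, and a peak of 11 reads in intron 2 held none. The 2 peaks that lay beyond the gene were nearer to the start of Pdzk1ip1 than to that of Tal1. None of the 4 overlapped a 9aa-Ins peak, and the nearest 9aa-Ins summit was 1019 kb from the Tal1 start. The bases around the WGATAR of the 2 higher peaks are shown because both carry the full motif and neither site was detected with 9aa-Ins. As in all sequences here, the letters are the plus strand of GRCm38 (mm10), the capitals mark WGATAR on either strand, and an E-box is in capitals only where it stands 6 to 14 bp before WGATAR.
Tal1 downstream peak, chr4:115095964-115095993: cctggtagaaacTGATAAcgcaccagctgg
Tal1 first intron peak, chr4:115056676-115056705: cgaggcggctccTTATCTcggcggcgcaca
In the downstream site an E-box, cagctg, follows the TGATAA, in the order that was not searched for.

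Lyl1 (ENSMUSG00000034041.4, chr8:84701457-84704715, plus strand) is a short gene of 3.26 kb, yet it had the second highest GATA2 peak of the whole list. Its summit lay 113 bp from the gene start in exon 1, in untranslated sequence, with a pileup of 124 reads and a fold enrichment of 85.4. A second peak, of 40 reads, lay 2.33 kb from the start in intron 3, and 1 of 18 reads lay 3.93 kb from the start, just past the gene and within an untranslated exon of Nfix, a gene that overlaps Lyl1. Peaks of 14 and 11 reads flanked these, 1.40 kb upstream and 5.34 kb from the start. WGATAR stood at 2 of the 14 peaks only. These were the peak in exon 1 and a peak of 25 reads 29.5 kb from the start, in an intron of Nfix, which held 2 WGATAR.
Lyl1 exon 1 peak, chr8:84701631-84701660: cagcattgcttcTTATCAgccgcggccagg
Lyl1 peak within Nfix, chr8:84730896-84730996: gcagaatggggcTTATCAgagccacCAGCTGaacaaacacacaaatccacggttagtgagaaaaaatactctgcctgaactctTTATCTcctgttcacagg
The site within Nfix is shown because it pairs an E-box with WGATAR, 7 bp apart, read on the minus strand. Another 7 peaks lay from 36.2 to 62.0 kb upstream of Lyl1, with Ier2, an immediate early gene, as nearest gene start. The farthest was in a coding exon of Cacna1a and the others lay around Ier2. Their pileups ran from 9 to 21 reads, and none held WGATAR. The last of the 14, of 13 reads and without WGATAR, lay 36.3 kb from the start in an intron of Nfix.

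Lmo2 and Ldb1, for the proteins that bridge the complex, had 2 GATA2 peaks each and none inside the gene. At Lmo2 (ENSMUSG00000032698.15, chr2:103957986-103981878, plus strand) both peaks lay upstream, between genes, with Lmo2 as nearest start, and both held WGATAR. The peak 64.0 kb upstream had a pileup of 36 reads and a fold enrichment of 25.3, and that 12.1 kb upstream had 14 reads. Regulatory elements active in blood and endothelial cells are known over this upstream stretch.
Lmo2 far upstream peak, chr2:103893973-103894002: ggctccctgctgTTATCTgacccaacctgc
Lmo2 near upstream peak, chr2:103945803-103945832: ggggcaggggcaCTATCAttttttccctga
The higher peak had AGATAA, its centre 12.5 bp from the summit, and the lower had TGATAG 89.5 bp from the summit.

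Ldb1 (ENSMUSG00000025223.15, chr19:46031570-46045214, minus strand) had the lowest top peak of the 7 genes. Its peaks had 15 and 12 reads, close to the median of 15 reads over all GATA2 peaks. Both sat at promoters of neighbours, the former 11.2 kb upstream of Ldb1 in the promoter of Pprc1 and the latter 30.7 kb upstream at the start of Nolc1. The peak at Pprc1 held AGATAA and that at Nolc1 no WGATAR. The nearest 9aa-Ins summit was 161 kb from the start of Lmo2 and 716 kb from that of Ldb1.
Peak upstream of Ldb1 at Pprc1, chr19:46056426-46056455: aggtcagggcctTTATCTttttccaggttg

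Runx1 (ENSMUSG00000022952.17, chr16:92601466-92826149, minus strand) is the longest of the genes, 225 kb, and 6 of its 7 GATA2 peaks lay in its introns. The highest pileup was 30 reads, in each of 2 peaks, 1 in intron 2 at 3.74 kb from the start and 1 between genes 57.8 kb upstream. A peak of 18 reads lay 24.3 kb into the gene, about where an enhancer active in emerging blood stem cells is known, and held no WGATAR within 100 bp of its summit. A peak of 11 reads lay at the proximal promoter, 129 kb from the distal start. The others without WGATAR had 12 reads at 2.37 kb and 11 reads at 205 kb from the start. The nearest 9aa-Ins summit was 1036 kb from the start.
Runx1 upstream peak, chr16:92883915-92883972: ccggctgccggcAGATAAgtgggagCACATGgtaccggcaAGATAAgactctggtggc
Runx1 intron 2 peak, chr16:92715780-92715992: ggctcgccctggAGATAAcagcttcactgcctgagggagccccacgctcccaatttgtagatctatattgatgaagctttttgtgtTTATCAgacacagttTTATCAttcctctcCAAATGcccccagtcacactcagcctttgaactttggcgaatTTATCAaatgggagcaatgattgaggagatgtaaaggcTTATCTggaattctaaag
The upstream site has an E-box 9 bp before the second AGATAA. The intron 2 site, 110 kb from the start, is shown for its 5 WGATAR within 100 bp of the summit, a number reached by 2 of 6254 GATA2 peaks. Its pileup was 18 reads and its fold enrichment 13.0, so that the most motifs did not go with the highest peak of the gene.

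Cbfa2t3 (ENSMUSG00000006362.16, chr8:122625141-122699109, minus strand) had 9 GATA2 peaks, 7 of them upstream and 6 with WGATAR. The highest lay 20.7 kb upstream with 81 reads and a fold enrichment of 56.0, ranked 11 of 6254. A peak of 32 reads lay 13.1 kb upstream with 1 WGATAR. Close to the start were peaks of 24 reads, 0.322 kb upstream with 1 WGATAR, and of 36 reads, 1.74 kb upstream with none. The remaining 5 had pileups of 11 to 15 reads. One of these, 87.6 kb from the start at the promoter of Galns and Trappc2l, belongs to those genes by distance.
Cbfa2t3 upstream peak, chr8:122719872-122719915: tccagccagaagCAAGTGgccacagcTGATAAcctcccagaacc
Cbfa2t3 promoter, 9aa-Ins summit, chr8:122699196-122699239: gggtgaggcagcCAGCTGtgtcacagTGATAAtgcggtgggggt
These are shown side by side because in both an E-box stands 8 bp before TGATAA, in the same order and orientation. The first had a GATA2 peak and no 9aa-Ins peak. The second lay within 100 bp of a 9aa-Ins summit 80 bp upstream of the start, and also inside the GATA2 peak found there, but farther than 100 bp from the GATA2 summit. An E-box 6 to 14 bp before any WGATAR was found at 3 of 1079 9aa-Ins peaks.

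Zfpm1 (ENSMUSG00000049577.15, chr8:122282141-122337251, plus strand) had 11 GATA2 peaks, 9 of them in its introns, and 7 held WGATAR. The highest, of 79 reads with a fold enrichment of 54.7, lay 2.61 kb from the start in intron 1, spanned 2804 bp and ranked 12 of 6254. A peak of 57 reads at the promoter, 0.496 kb upstream, ranked 42. Further peaks with WGATAR had 31 reads at 27.4 kb, 31 reads at 39.7 kb, 23 reads at 67.7 kb, 21 reads at 4.92 kb and 20 reads at 31.3 kb. The 4 peaks without WGATAR had 12 to 14 reads, below all 7 that held it.
Zfpm1 promoter peak, chr8:122281694-122281723: ggggaggacaacTGATAGgcgggatcaggg
Zfpm1 intron 3 peak, chr8:122309449-122309585: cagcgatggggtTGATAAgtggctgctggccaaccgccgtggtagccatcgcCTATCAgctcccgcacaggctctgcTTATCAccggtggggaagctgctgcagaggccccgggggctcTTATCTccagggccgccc
The intron 3 site is shown for its 4 WGATAR within 100 bp of the summit. Of the 6254 GATA2 peaks, 25 held 4 or more, and 3 of those 25 were linked to the partner genes.

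**Figure D2:**
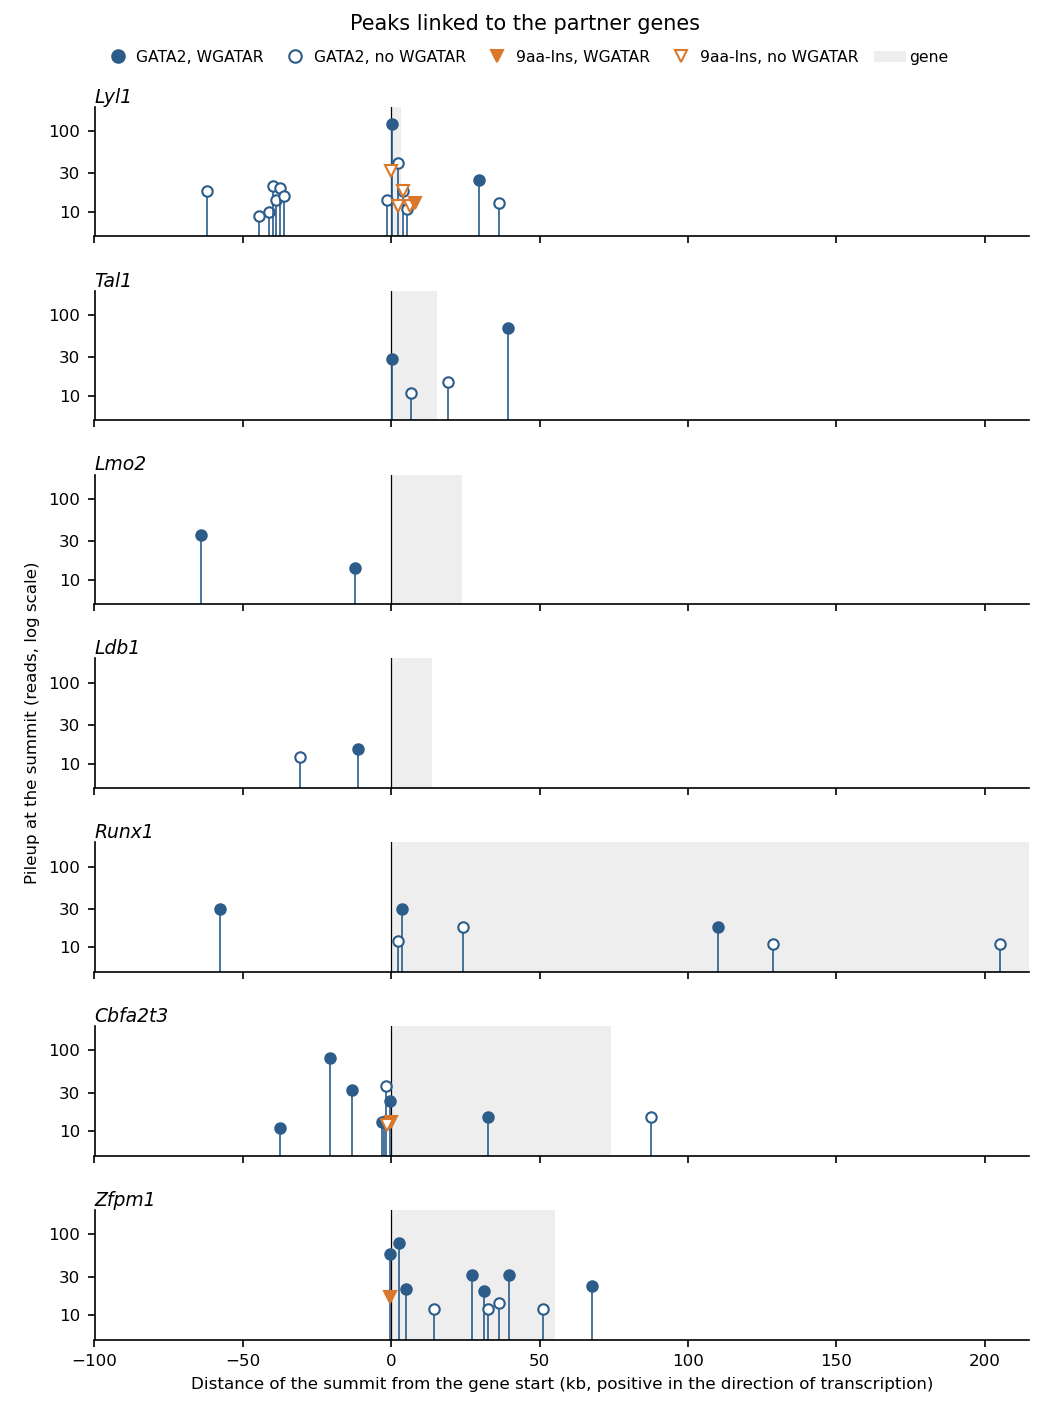
Pileup at the summit (vertical axes, reads, log scale) against distance of the summit from the gene start (horizontal axis, kb, positive in the direction of transcription) for each partner gene. Circles are GATA2 peaks and triangles 9aa-Ins peaks, filled where WGATAR lay within 100 bp of the summit, and the grey band is the gene. All 9aa-Ins triangles stand within 8.16 kb of the start of Lyl1, Cbfa2t3 or Zfpm1, while GATA2 circles reach 205 kb into Runx1.

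The limit of 100 kb did not divide dense groups of peaks. The GATA2 summit just inside it was 87.6 kb from Cbfa2t3 with 15 reads, and that just outside was 101 kb from Ldb1 with 10 reads.

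Overlap between the lists was then compared, to see which of these sites were detected with both proteins. Of the 49 linked GATA2 peaks, 6 overlapped a 9aa-Ins peak by at least 1 bp (12.2%, 95% Wilson interval 5.73 to 24.2), beside 15.3% of all GATA2 peaks. Of the 8 linked 9aa-Ins peaks, 6 overlapped a GATA2 peak (75%, 40.9 to 92.9), beside 88% of all 9aa-Ins peaks. All 6 shared peaks lay within 3.93 kb of the start of a partner gene. Where the nearest coding start of any gene was within 10 kb, 6 of 26 linked peaks were shared (23.1%, 11.0 to 42.1), beside 19.7% of all such GATA2 peaks. Where it was farther, 0 of 23 were shared (0 to 14.3%), beside 6.31% of all. By height, 4 of the 13 linked peaks with 30 or more reads were shared (30.8%, 12.7 to 57.6), beside 48.1% of all such peaks, and 2 of 17 with 15 to 29 reads (11.8%, 3.29 to 34.3), beside 20.9%. Under 15 reads, 0 of 19 were shared (0 to 16.8%), beside 4.87%. Lyl1 had 3 shared peaks, Cbfa2t3 had 2 and Zfpm1 had 1.

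At the shared peak in exon 1 of Lyl1 the pileup was 124 reads with GATA2 and 32 with 9aa-Ins, a ratio of 3.88 (95% exact interval 2.61 to 5.91). That peak ranked 2 of 6254 in the GATA2 list and 53 of 1079 in the 9aa-Ins list. In intron 3 of Lyl1 the pileups were 40 and 12 reads, a ratio of 3.33 (1.71 to 6.98). Just past the end of Lyl1 they were 18 and 18 reads, a ratio of 1.0 (0.491 to 2.04), at a site without WGATAR in either list. The ratio at Lyl1 thus ran from equal reads to 3.88 times as many with GATA2.

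At the Zfpm1 promoter the pileups were 57 and 17 reads, a ratio of 3.35 (1.92 to 6.15), with the summits 10 bp apart and the same TGATAG near both. At Cbfa2t3 the peak 1.74 kb upstream had 36 and 12 reads, a ratio of 3.00 (1.53 to 6.33). Its summits were 302 bp apart, the widest gap of the 6 pairs, so the reads were counted at separate positions. The Cbfa2t3 peak 0.322 kb upstream had 24 and 13 reads, a ratio of 1.85 (0.903 to 3.95), with summits 242 bp apart and WGATAR near each. The median ratio was 3.17 over these 6 peaks and 1.5 over all 958 shared peaks, while the backgrounds had a ratio of 1.02. For 4 of the 6 the interval lay above 1, beside 22% of all 958 shared peaks, and for the Lyl1 peak past the gene and the Cbfa2t3 peak nearest the start it held 1. Those 4 were also the ones with 30 or more GATA2 reads, a height reached by 214 of the 958 shared peaks. Neither the ratios nor their intervals were compared at matched height, so the contrast with all shared peaks cannot be told apart from a difference in height. These ratios compare 2 merged peak lists, not the conditions with their spread.

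**Figure D3:**
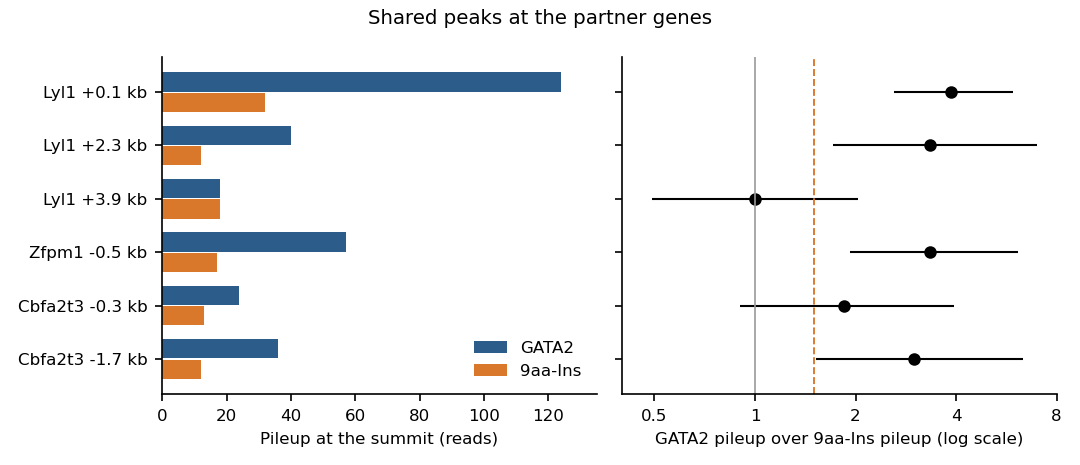
Left, pileup at the summit in reads (bars) for the 6 shared peaks at the partner genes, with GATA2 in blue and 9aa-Ins in orange. Right, the ratio of the pileups (points, log axis) with exact 95% intervals for counting error. The solid line is a ratio of 1 and the dashed line the median of 1.5 over all shared peaks. The points lie from 1.0 at Lyl1 +3.9 kb to 3.88 at Lyl1 +0.1 kb.

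The 2 linked 9aa-Ins peaks that overlapped no GATA2 peak both belonged to Lyl1. They had 12 reads at 6.46 kb and 13 reads at 8.16 kb from the start, in an untranslated exon and an intron of Nfix. The latter held AGATAG, and 39.8% of the bases within 100 bp of its summit were marked as repeat. WGATAR stood at 3 of the 8 linked 9aa-Ins peaks (37.5%, 13.7 to 69.4), beside 12.1% of all 9aa-Ins peaks. With GATA2 the nearest peak, of 11 reads, lay 5.34 kb from the start.

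The GATA2 peaks not found with 9aa-Ins numbered 43. Among the 5296 GATA2 peaks of the whole list that were not shared, those upstream of Cbfa2t3, in intron 1 of Zfpm1 and downstream of Tal1 ranked 7, 8 and 10 by height. A site that misses the threshold with 9aa-Ins was not shown to be free of the protein, since reads below the threshold were not analysed here.

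The DNA at the linked peaks was described by short motifs within 100 bp of the summit on both strands. WGATAR stood at 23 of 49 linked GATA2 peaks (46.9%, 33.7 to 60.6), beside 30.3% of all GATA2 peaks. The placement of the peaks differed too: 10 of the 49 (20.4%, 11.5 to 33.6) had their summit in a promoter, taken as 2 kb upstream to 100 bp downstream of a coding transcript start, beside 50.4% of all GATA2 peaks. Outside promoters WGATAR stood at 48.7% of linked peaks (33.9 to 63.8, n = 39) and 47.0% of all. In promoters it stood at 4 of 10 linked peaks (40%, 16.8 to 68.7) and 13.9% of all. Introns held 26 of the 49 summits (53.1%, 39.4 to 66.3), beside 26.7% of all GATA2 summits. Introns of non-coding genes were counted where no coding gene lay at the summit. Of the 26, 6 counted as intronic only through Gm20388, a gene model of 4435 kb that runs across Cbfa2t3 and Zfpm1.

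Linked peaks with WGATAR had a median pileup of 29 reads (n = 23, 11 to 124) and those without 13.5 reads (n = 26, 9 to 40), beside 16 and 14 reads over all GATA2 peaks. Of the 13 linked peaks with 30 or more reads, 11 held WGATAR (84.6%, 57.8 to 95.7), beside 51.0% of all such peaks. The 2 without it, in intron 3 of Lyl1 and 1.74 kb upstream of Cbfa2t3, were both shared with 9aa-Ins. All 9 linked peaks of 30 or more reads that were not shared held WGATAR (100%, 70.1 to 100), beside 73.2% of such peaks in the whole list. Of the 19 linked peaks under 15 reads, 3 held WGATAR (15.8%, 5.52 to 37.6), beside 25.6% of all. Tall peaks at these genes were thus mostly WGATAR sites, and low ones mostly not.

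An E-box 6 to 14 bp before WGATAR stood at 5 of 49 linked GATA2 peaks (10.2%, 4.44 to 21.8), beside 3.01% of all. This pair contains WGATAR, and among peaks with WGATAR it stood at 5 of 23 linked peaks and at 188 of 1893 in the whole list. Promoters were not separated for the pair. Among the 5 linked sites were those printed above for Lyl1 within Nfix, Runx1 upstream and intron 2, and Cbfa2t3 upstream. The E-box alone, CANNTG, stood at 57.1% of linked and 53.9% of all GATA2 peaks, and its form CAGNTG at 42.9% and 37.5%. The RUNX motif, TGTGGT or TGCGGT, stood at 12.2% of linked and 21.7% of all, and the ETS motif, CAGGAA or CCGGAA, at 28.6% and 32.4%. The GATA core alone, which WGATAR contains, stood at 71.4% and 48.2%. Such matches are letters in a short window and not evidence of binding by the factor named.

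**Figure D4:**
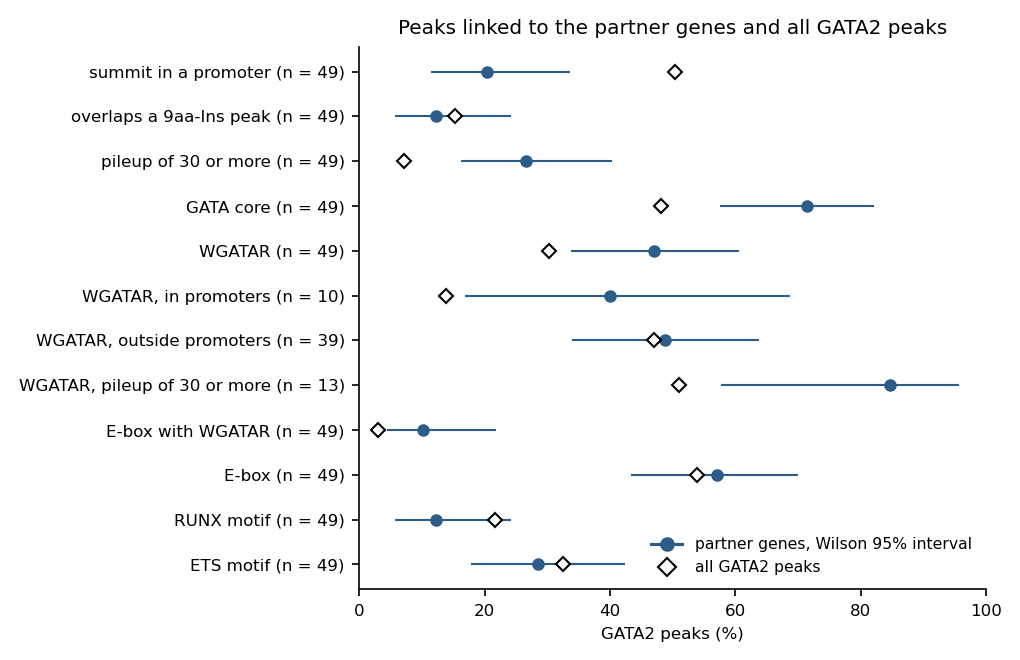
Share of GATA2 peaks (horizontal axis, %) with the feature named on each line, for peaks linked to the partner genes (blue points with Wilson 95% intervals) and for all GATA2 peaks, these included (open diamonds). The E-box and WGATAR outside promoters lie within 5 points of the value for all peaks, whereas the promoter share is 20.4% against 50.4%.

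Short promoter windows around the starts in RefSeq, on GRCm38.p6, were compared with the peaks. They numbered 11, for 6 of the 7 genes (not Lmo2). WGATAR stood in 3 of them, at Tal1, Ldb1 and Cbfa2t3, beside 29.8% of all 32851 promoters. GATA2 peaks overlapped 5 of the 11, 1 each of Lyl1, Tal1, Runx1, Cbfa2t3 and Zfpm1, beside 10.7% of all promoters. 9aa-Ins peaks overlapped 2 of the 11, of Lyl1 and Cbfa2t3, beside 2.56% of all. Of the 3 promoters with WGATAR only that of Cbfa2t3 overlapped a peak. At Tal1 the peak overlapped the other promoter, and the promoter with WGATAR ended at base 115056475, just before the peak began at 115056496. The 3 promoters of Ldb1, 1 of them with 2 WGATAR, overlapped no peak in either list.

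Genes for relatives and further partners of these proteins gave a comparison. Of 21 such genes 14 had a linked GATA2 peak, beside 52.5% of all protein-coding genes, with 46 peaks in all, of which 18 held WGATAR and 4 were shared. Linked 9aa-Ins peaks were found at 4 of the 21, namely 2 at Ssbp4 and 1 each at Tcf3, Runx2 and Fli1, beside 18.6% of all protein-coding genes. Tcf3, which encodes the E proteins E12 and E47, had the highest, a shared promoter peak of 59 reads with WGATAR. Erg, an ETS factor of blood stem cells, had 4 peaks, the highest of 45 reads and 147 kb from the start, and Gata2 itself had 8, the highest of 33 reads and 58.6 kb from the start. Ssbp4, of a family that stabilizes LDB1, also had 8, the highest of 33 reads without WGATAR. The other related genes with GATA2 peaks had 1 to 4 each, with pileups up to 21 reads. Cbfb, for the partner of RUNX1, had 1 peak of 9 reads, the lowest pileup of the list. The paralogs Tal2, Ldb2, Lmo3, Cbfa2t2, Runx1t1 and Zfpm2, and the E protein gene Tcf12, had no GATA2 peak. Among the LMO genes, Lmo4 had 3 peaks and Lmo1 had 1, beside 2 at Lmo2. Among the RUNX genes, Runx2 had 2 and Runx3 had 4, beside 7 at Runx1.

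A gene with the same numbers of GATA2 peaks, 9aa-Ins peaks and WGATAR peaks and the closest top pileup was sought for each of the 7. For Lyl1 it was G430095P16Rik and for Tal1 Cyp4x1, neighbours that share all 14 and all 4 of the peaks, so that the lists cannot assign these peaks to 1 gene. For Lmo2 it was Camk1d, for Ldb1 Apeh and for Runx1 Txn2, elsewhere in the genome. No other gene had the numbers of Cbfa2t3 or Zfpm1.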

How the data were processed

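CUT&Tag reads were aligned by the authors to mm10 with Bowtie2, duplicates and reads in blacklisted regions were dropped, and peaks were called with MACS3 at a q-value of 1e-06. Software versions for the CUT&Tag processing are not given in the sources used here. The study's methods describe merging of peaks called in each replicate, whereas each file carries a single background, as a call on merged reads would. The deposited score was 10 times the −log10 q-value within 1 unit, and the deposited fold enrichment is a ratio. Pileups recovered from fold enrichment were whole for 100% of peaks (tolerance 0.001). Library read totals were not used, so the background and pileups stand for depth. The columns used numbered 3 per list, and 0 belonged to other samples.

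Genes came from GENCODE M21 and bases from GRCm38, on which 40 of 40 transcripts of the 7 genes matched base for base. Peaks were linked, overlapped and searched for motifs with Python 3.11.15, numpy 2.4.6 and pysam 0.24.0, and intervals were computed with scipy 1.17.1 (Wilson for shares, Clopper-Pearson for pileup ratios). The scripts were tested on simulated data. The 7 genes, related genes, motifs and alternatives were chosen with earlier results of these data known. Named genes are the 7, the 21 related genes, the like gene of each and the genes nearest to linked peaks, which are given in part. Nfix, Pprc1, Trappc2l, Cacna1a and Gm20388, whose models or promoters hold linked summits, are outside this rule and were chosen after their values were seen. Alternatives were the q-value, the linking rule, the overlap rule, the motif window and a shortened GATA2 list.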

Additional observations from a re-analysis of the deposited data

How the results depend on the processing

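No paired analysis was possible because the replicates are merged in both lists, and for the same reason no replicate could be left out. Of 93 values under the alternatives, 69 stayed within 1.5 times a count or within the 95% interval of a share or median, and 24 moved. The count of 49 linked GATA2 peaks moved to 28 within 10 kb or inside the gene, to 20 inside the gene only and to 32 with the nearest coding gene only. The same restriction to the inside of the gene left 2 of 8 9aa-Ins peaks, at 1 of 3 genes. GATA2 peaks inside or within 10 kb were absent at Lmo2 and Ldb1 (0 each). The shared share of 12.2% moved to 4.08% with reciprocal overlap of 50%, and the share of all GATA2 peaks under that rule is not given here. The linked share moved to 29.4% with the GATA2 list shortened to its 1079 peaks of lowest q-value, which kept 17 linked peaks. Of all 1079 peaks in the shortened list, 41.1% were shared. The WGATAR share of 46.9% moved to 30.6% within 50 bp, 61.2% within 200 bp and 71.4% for the GATA core within 100 bp. Over all GATA2 peaks the shares within 100 bp were 30.3% for WGATAR and 48.2% for the core. Shares of all peaks within 50 or 200 bp are not given, so 30.6% and 61.2% cannot be set against 30.3%. A stricter q-value (1e-08 or 1e-10) moved none of the 7 values it was applied to. Low pileups, from 9 reads, limit what could be detected with either protein.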
